A study of Arabidopsis thaliana with 24 samples.

Results

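The question was which Arabidopsis thaliana genes depart, in plants that overexpress both MYB12 and PAP1, from the sum of what each regulator does alone. The 15 arrays of 5 genotypes that answer it were taken by sample title from the 24 arrays of the series, 3 per genotype. Each array, an Affymetrix ATH1 GeneChip, measured RNA of shoots (aerial parts) harvested at an age of 3 weeks. Col-0 is the wild type and carries no overexpressed regulator. MYB12OX overexpresses MYB12 and pap1-D overexpresses PAP1 (MYB75), each labelled homozygous in the Col-0 background. WOX1-1 and WOX1-2 both come from a cross of MYB12OX with pap1-D and are labelled homozygous with the same genotype text, so nothing in the labels tells them apart except the line name. The chalcone synthase gene is labelled as mutated in none of these 5 genotypes. The labels name neither the promoter behind each regulator nor how many plants or pools lie behind the arrays of a genotype. The p-values therefore rest on array-to-array spread alone, some of which may be technical. The growth protocol also mentions a drought experiment, and no label ties an array to it.

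MYB12 and PAP1 are R2R3-MYB transcription factors that act at different points of the same pathway. MYB12 switches on the early enzymes, from chalcone synthase to flavonol synthase, that make the pale flavonols. PAP1, together with bHLH and WD40 partners, switches on the late enzymes from dihydroflavonol reductase onward that make and decorate the red to purple anthocyanins. Both draw on the same phenylalanine supply and share intermediates, so plants with both overexpressed make it possible to ask whether each regulator has the same effect with and without the other.

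The departure used throughout is the mean of WOX1-1 and WOX1-2, minus MYB12OX, minus pap1-D, plus Col-0, on log2(signal + 42.6). A departure of 0 means that the log2 differences of the single lines from Col-0 add up to that of the combined lines. It is the same number as the MYB12OX effect in the pap1-D background minus the MYB12OX effect in Col-0. It comes with its standard error (SE) from a limma fit to all 24 arrays, and an adjusted p under 0.05 counted as passing.

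No probe set could be matched to MYB12 or PAP1 by name. The probe sets described in their place, neither of which has a gene name, are those with the widest gap between the labelled carriers of each regulator and the other plants. That choice fixes their match to the labels, so they are no check of them and only show levels among the carriers. The MYB12OX-linked probe set read 38.4, 47.7 and 50.7 in Col-0 and 18.5 to 38.8 in pap1-D. It read 2227, 2470 and 2404 in MYB12OX, 2426, 2346 and 2013 in WOX1-1, and 2305, 2144 and 2307 in WOX1-2. The combined lines thus overlapped MYB12OX, with a difference of -0.07 ± 0.09 (SE) on the log2 scale. The pap1-D-linked probe set read 4952, 4766 and 5054 in pap1-D against 41.4 to 70.4 in Col-0 and 28.9 to 53.6 in MYB12OX. It read 4273, 4449 and 3646 in WOX1-1 and 3488, 3901 and 3602 in WOX1-2. All 6 arrays of the combined lines lay below all 3 arrays of pap1-D, and the difference was -0.34 ± 0.11 (SE). Neither probe set passed for a departure from the sum, at 0.24 ± 0.13 (adjusted p = 0.657) and -0.13 ± 0.17 (adjusted p = 0.909).

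**Figure D1:**
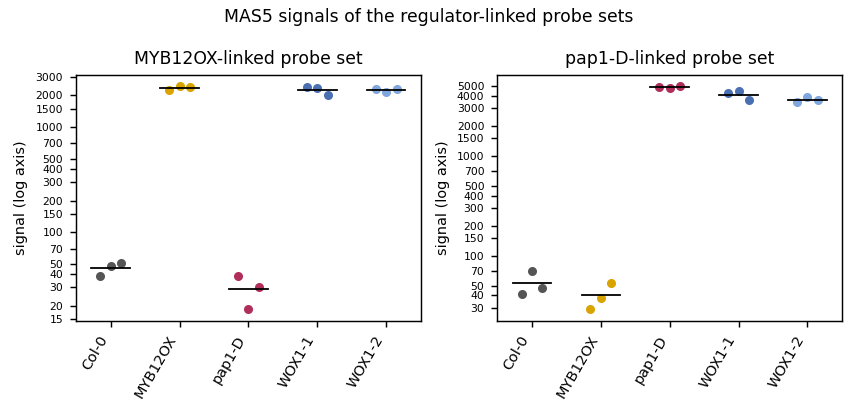
Signals of the MYB12OX-linked and pap1-D-linked probe sets (vertical, log axis) on the 3 arrays of each genotype (points, lines at the mean). The combined lines reach the MYB12OX level of the first probe set and stay below the pap1-D level of the second, between 3488 and 4449.

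On the second principal component, with 16.7% of the variance of the 15 arrays, pap1-D replicate 1 (-27.9) and WOX1-1 replicate 1 (-19.0) lay apart from the other arrays, which ranged from -6.85 to 12.3. The summed signal of 4 fast stress genes was 12892 and 8661 on these arrays and 1224 to 4191 on the other 13. The first component, with 34.9%, broadly followed the listing of the samples, from -28.5 on Col-0 replicate 1 to 19.0 on WOX1-2 replicate 3. The samples are listed genotype by genotype, so listing order and genotype cannot be told apart on this component. The combined lines stand 10.5 places after Col-0 in the listing. Under the weights of the departure this comes to 1.5 places for the mean of both lines, 0 for WOX1-1 alone and 3 for WOX1-2 alone. With the place in the listing as a covariate, 75 probe sets passed in place of 31, and the part of the listing order in the departures was not tested further. The aerial tissue label was borne out by the bright photosynthesis genes RCA (22423 to 27159) and LHCB4.1 (25358 to 30143), while the 2 root markers with a named probe set summed to 10.5 to 64.7.

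Most departures were small. Of 14935 probe sets tested, 31 (0.208%) passed, 12 above the sum (0.0803%) and 19 below it (0.127%), and 1305 had an unadjusted p under 0.05. The middle 90% of all departures lay between -0.33 and 0.34, and the median SE was 0.14, which gives a 95% interval of about 0.30 on either side for a typical probe set. Departures of at least 2-fold were found in 54 probe sets (0.362%), and 9 of them passed. The 31 ran from -2.10 to 2.03, and their median size was 0.74. With linear signals in place of log2, where the sum means something else, 32 passed, 9 above and 23 below. All 31 had the same sign in WOX1-1 alone and in WOX1-2 alone. Taken alone, WOX1-1 gave 7 probe sets (0.0469%), 3 above (0.0201%) and 4 below (0.0268%). WOX1-2 gave 63 (0.422%), 22 above (0.147%) and 41 below (0.275%). The 31 included 7 of the former and 30 of the latter. The lines share the Col-0, MYB12OX and pap1-D arrays, so agreement between them is not independent. Of the 31, 11 have a single gene name here, 6 above and 5 below the sum. In whole shoots, a lower signal from fewer cells of a type cannot be told apart from less RNA per cell.

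The count rested on few arrays. It was 12 without Col-0 replicate 1, 56 without Col-0 replicate 3, 20 and 14 without MYB12OX replicates 2 and 3, and 19, 16 and 14 without pap1-D replicates 1, 2 and 3. It was 67 and 16 without WOX1-1 replicates 1 and 3, and 18 without WOX1-2 replicate 2. Of the 31 probe sets, 11 passed in all 15 fits that left out 1 array, 4 of them with a gene name: AT1G68670, AT1G25550, AT1G79160 and AT1G78170. Without the pair of arrays that lay apart on the second component the count was 36, of which 20 were among the 31.

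**Figure D2:**
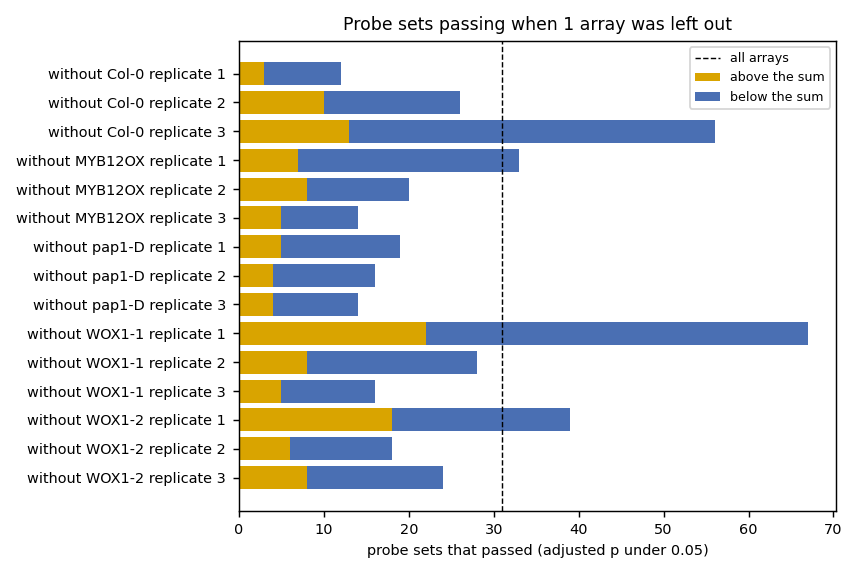
Number of probe sets that passed above (yellow) and below (blue) the sum when the array named on the left was left out, with a dashed line at 31 for all arrays. The count runs from 12 without Col-0 replicate 1 to 67 without WOX1-1 replicate 1.

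Among named genes, the smallest adjusted p below the sum belonged to AT1G68670 and AT1G25550, related genes for GARP-type transcription factors of the group known as nitrate-inducible repressors of nitrogen starvation genes. AT1G68670 read 1208, 1534 and 1729 in the wild type, against 1919, 2093 and 2021 in MYB12OX and 2409, 2000 and 1924 in pap1-D. It read 1850, 1703 and 1376 in WOX1-1 and 1161, 1271 and 1077 in WOX1-2. Both single lines lay above every Col-0 array, whereas WOX1-1 overlapped Col-0 and all but 1 of the WOX1-2 arrays lay below it. The sum of the single differences, 0.44 ± 0.12 in MYB12OX and 0.50 ± 0.12 in pap1-D, corresponds to a signal of 2857 in the combined lines, where 1380 was measured. The departure was -1.03 ± 0.16 (95% interval -1.35 to -0.71, adjusted p = 0.00265).

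AT1G25550 read 1876, 2072 and 2565 in Col-0, 2720, 2545 and 2586 in MYB12OX and 2550, 2386 and 2120 in pap1-D. All 6 combined arrays were lower than any of these 9, at 1752, 1802 and 1476 in WOX1-1 and 1435, 1582 and 1504 in WOX1-2. The single lines differed from Col-0 by 0.28 ± 0.09 and 0.12 ± 0.09, the combined lines by -0.43, and the departure was -0.83 ± 0.12 (95% interval -1.08 to -0.57, adjusted p = 0.00265). Each combined line passed by itself: WOX1-1 departed by -0.76 (adjusted p = 0.0320), WOX1-2 by -0.90 (adjusted p = 0.00149). For AT1G68670, WOX1-2 passed with -1.26, whereas WOX1-1, with -0.79, did not (adjusted p = 0.0719). In the 3 genotypes with mutated chalcone synthase, which do not enter the departure, the means were 925 to 1014 for AT1G68670 and 1309 to 1454 for AT1G25550, below every Col-0 array as well. Without the arrays numbered 1 the departure of AT1G25550 was -0.64 and did not pass (adjusted p = 0.0611).

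AT1G04770 (SDI2), which plants induce when sulfur is short, was the only tested member of its list of 10 genes and the only one of 51 tested list members to pass. It read 723, 705 and 695 in Col-0, 871, 668 and 752 in MYB12OX and 562, 631 and 578 in pap1-D. WOX1-1 read 452, 420 and 425 and WOX1-2 read 304, 325 and 255, so the combined lines lay below all 9 other arrays and did not overlap each other. MYB12OX differed from Col-0 by 0.10 ± 0.11 and pap1-D by -0.25, and the combined lines by -0.91. The departure was -0.76 ± 0.15 (95% interval -1.06 to -0.46, adjusted p = 0.0276), with -1.01 in WOX1-2 and -0.51 in WOX1-1 (adjusted p = 0.354). Its signal was lower still in the genotypes with mutated chalcone synthase, which follow in the listing, at means of 179 to 213. It did not pass without Col-0 replicate 1 or 2, MYB12OX replicate 1 or 3, pap1-D replicate 2 or 3 or WOX1-1 replicate 3, with departures of -0.85 to -0.67 over the 15 fits. Nor did it pass with no filter (adjusted p = 0.0535) or without the arrays numbered 1 (-0.74, adjusted p = 0.104).

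A further pair below the sum had combined lines no further above Col-0 than pap1-D alone, within their error. AT3G07470 read 3048, 3447 and 3370 in Col-0, 4080, 5087 and 4971 in MYB12OX and 5122, 5599 and 5726 in pap1-D. WOX1-1 read 5447, 5370 and 5338 and WOX1-2 read 5538, 5960 and 5514, which overlaps pap1-D. The differences from Col-0 were 0.51, 0.73 and 0.74 in MYB12OX, pap1-D and the combined lines, and the departure was -0.50 ± 0.10 (95% interval -0.69 to -0.30, adjusted p = 0.0276). AT3G59080 averaged 478 ± 86.2 in the wild type, 694 ± 17.6 in MYB12OX, 729 ± 109 in pap1-D, 644 ± 48.3 in WOX1-1 and 601 ± 50.6 in WOX1-2 (SD, n = 3 each). Its departure was -0.72 ± 0.15 (95% interval -1.03 to -0.42, adjusted p = 0.0364). Both calls depended on single arrays. AT3G07470 passed in 9 of the 15 fits that left out 1 array (departures -0.60 to -0.44), and failed without Col-0 replicate 1, MYB12OX replicate 2 or 3, pap1-D replicate 2 or 3 or WOX1-1 replicate 3. AT3G59080 passed in 5 (-0.84 to -0.60), namely without Col-0 replicate 3, pap1-D replicate 2, WOX1-1 replicate 1 or WOX1-2 replicate 1 or 3. Both missed the threshold with the 5 genotypes only and with no intensity trend, AT3G07470 also on linear signals, and AT3G59080 also with no filter, without the arrays numbered 1 (-0.48) and without pap1-D replicate 1 and WOX1-1 replicate 1 (-0.65).

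Probe sets below the sum often had Col-0 apart at the low end. In 9 of the 19 all Col-0 arrays lay below all 12 others, as in 3.62% of all tested, and in 4 of the 19 both single lines lay above all Col-0 and combined arrays, as in 0.0335%. In 3 of the 19 both combined lines lay below all the others, as in 1.55%. The call uses these same values, so the counts describe the calls and support nothing further. The largest departure among the 31 belonged to a probe set without a gene name, picked after its values were seen, which averaged 442 in the wild type, 1434 in MYB12OX, 2369 in pap1-D, 2200 in WOX1-1 and 1409 in WOX1-2. Its single differences were 1.71 and 2.36, the combined one 1.98, and the departure -2.10 ± 0.39 (adjusted p = 0.0210). Leaving out 1 array ended this call in 5 of 15 cases. The unnamed probe set with the smallest adjusted p averaged 2289 in the wild type, 2860 in MYB12OX and 2959 in pap1-D, and was back at the wild-type level in WOX1-1 (2300) and WOX1-2 (2248). Its departure was -0.69 ± 0.09 (adjusted p = 0.00111), and it passed in all 15 of those fits.

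BZIP53, a bZIP factor of seed maturation and low-energy responses, and AT2G44500 came next below the sum among named genes outside the lists. Neither passed. BZIP53 averaged 2325 ± 438 in the wild type, 3103 ± 528 in MYB12OX, 3326 ± 173 in pap1-D, 3080 ± 29.9 in WOX1-1 and 2622 ± 95.7 in WOX1-2 (SD, n = 3 each), a departure of -0.64 ± 0.14 (adjusted p = 0.0532). AT2G44500 averaged 644 ± 105, 905 ± 107, 1248 ± 101, 1270 ± 88.0 and 1073 ± 19.6 in the same order, a departure of -0.56 ± 0.12 (adjusted p = 0.0566).

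Above the sum, AT1G79160 had the smallest adjusted p of the named genes. It read 514, 407 and 430 in Col-0, 268, 305 and 235 in MYB12OX, and 317, 323 and 324 with PAP1 overexpressed. WOX1-1 read 333, 377 and 348 and WOX1-2 read 494, 467 and 549. Every single-line array lay below every Col-0 array and below every combined array, and WOX1-2 lay above WOX1-1 on all arrays. The single-line differences of -0.66 ± 0.10 and -0.43 sum to a signal of 188 in the combined lines, where 421 was measured. The departure was 1.01 ± 0.14 (95% interval 0.73 to 1.29, adjusted p = 0.00111), and both lines passed by themselves, WOX1-1 with 0.78 (adjusted p = 0.0479) and WOX1-2 with 1.24.

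For AT5G65685 and AT1G01225 the signal was low mainly in 1 of the single lines, and was nearer to Col-0 when both regulators were overexpressed. AT5G65685 read 839, 741 and 934 in pap1-D, below all other arrays, against 1512, 1356 and 1370 in Col-0 and 1257, 1278 and 1262 in MYB12OX. The combined lines read 1120, 1290 and 1335 in WOX1-1 and 1104, 1219 and 994 in WOX1-2. Its departure was 0.62 ± 0.11 (95% interval 0.39 to 0.85, adjusted p = 0.0150), and both lines passed by themselves, WOX1-1 with 0.71 (adjusted p = 0.0260) and WOX1-2 with 0.54 (adjusted p = 0.0433). It failed without Col-0 replicate 1 and without pap1-D replicate 2, with departures of 0.54 to 0.70 over the 15 fits, and also with the 5 genotypes only (adjusted p = 0.0837) and without the arrays numbered 1 (adjusted p = 0.0947). AT1G01225 read 77.6, 60.1 and 97.6 in MYB12OX, below all other arrays, against 143, 161 and 133 in Col-0 and 139, 117 and 126 in pap1-D. It read 113, 178 and 169 in WOX1-1 and 173, 141 and 155 in WOX1-2, and the departure was 0.85 ± 0.17 (95% interval 0.50 to 1.21, adjusted p = 0.0364). The sum corresponds to a signal of 66.0, below the filter of 85.2, where 154 was measured. AT1G01225 passed in 5 of the 15 fits that left out 1 array, namely without Col-0 replicate 3, MYB12OX replicate 3, WOX1-1 replicate 1 or WOX1-2 replicate 1 or 2, with departures of 0.74 to 0.97 over all 15. It missed the threshold on linear signals, with no filter, with the 5 genotypes only and without the arrays numbered 1, and a stricter filter left it untested.

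The largest departures above the sum came with single and combined lines that all averaged below Col-0. AT2G20870 read 1348, 772 and 1153 in Col-0 and 152, 370 and 220 in MYB12OX, and 430, 462 and 615 in pap1-D. WOX1-1 read 480, 383 and 627 and WOX1-2 read 583, 658 and 381, which overlaps pap1-D. The mean went from 1091 ± 293 in the wild type to 247 ± 111 in MYB12OX (SD, n = 3 each), while pap1-D differed from Col-0 by -1.04 and the combined lines by -1.01. The departure was 2.03 ± 0.41 (95% interval 1.18 to 2.88, adjusted p = 0.0364). AT5G22430 read 781, 353 and 470 in Col-0, 108, 189 and 128 in MYB12OX and 195, 200 and 241 in pap1-D. It read 237, 177 and 284 in WOX1-1 and 285, 360 and 189 in WOX1-2, where replicate 2 alone overlapped Col-0. The departure was 1.80 ± 0.36 (95% interval 1.05 to 2.55, adjusted p = 0.0364), from single differences of -1.60 ± 0.27 and -1.12 and a combined one of -0.92. The sum corresponds to a signal of 92.1 for AT2G20870, where 507 was measured. For AT5G22430 it corresponds to 40.9, below the offset of 42.6 and possibly at background, where 249 was measured.

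Neither call held when certain arrays were left out. AT2G20870 passed in 6 of the 15 fits (departures 1.78 to 2.32) and AT5G22430 in 7 (1.51 to 2.04), and both failed without Col-0 replicate 1, MYB12OX replicate 1 or 3, any pap1-D array, WOX1-1 replicate 3 or WOX1-2 replicate 2. AT2G20870 also failed without Col-0 replicate 3. Both missed the threshold on linear signals, with no filter, with no intensity trend, without the arrays numbered 1 (1.49 and 1.30) and without pap1-D replicate 1 and WOX1-1 replicate 1 (1.94 and 1.74). AT1G78170 was firmer. It read 893, 739 and 535 in the wild type, 410, 336 and 388 in MYB12OX, 349, 378 and 360 in pap1-D, 328, 437 and 425 in WOX1-1, and 472, 457 and 461 in WOX1-2. All 12 other arrays lay below Col-0, the departure was 1.05 ± 0.18 (95% interval 0.68 to 1.43, adjusted p = 0.00968), and it passed in all 15 fits.

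**Figure D3:**
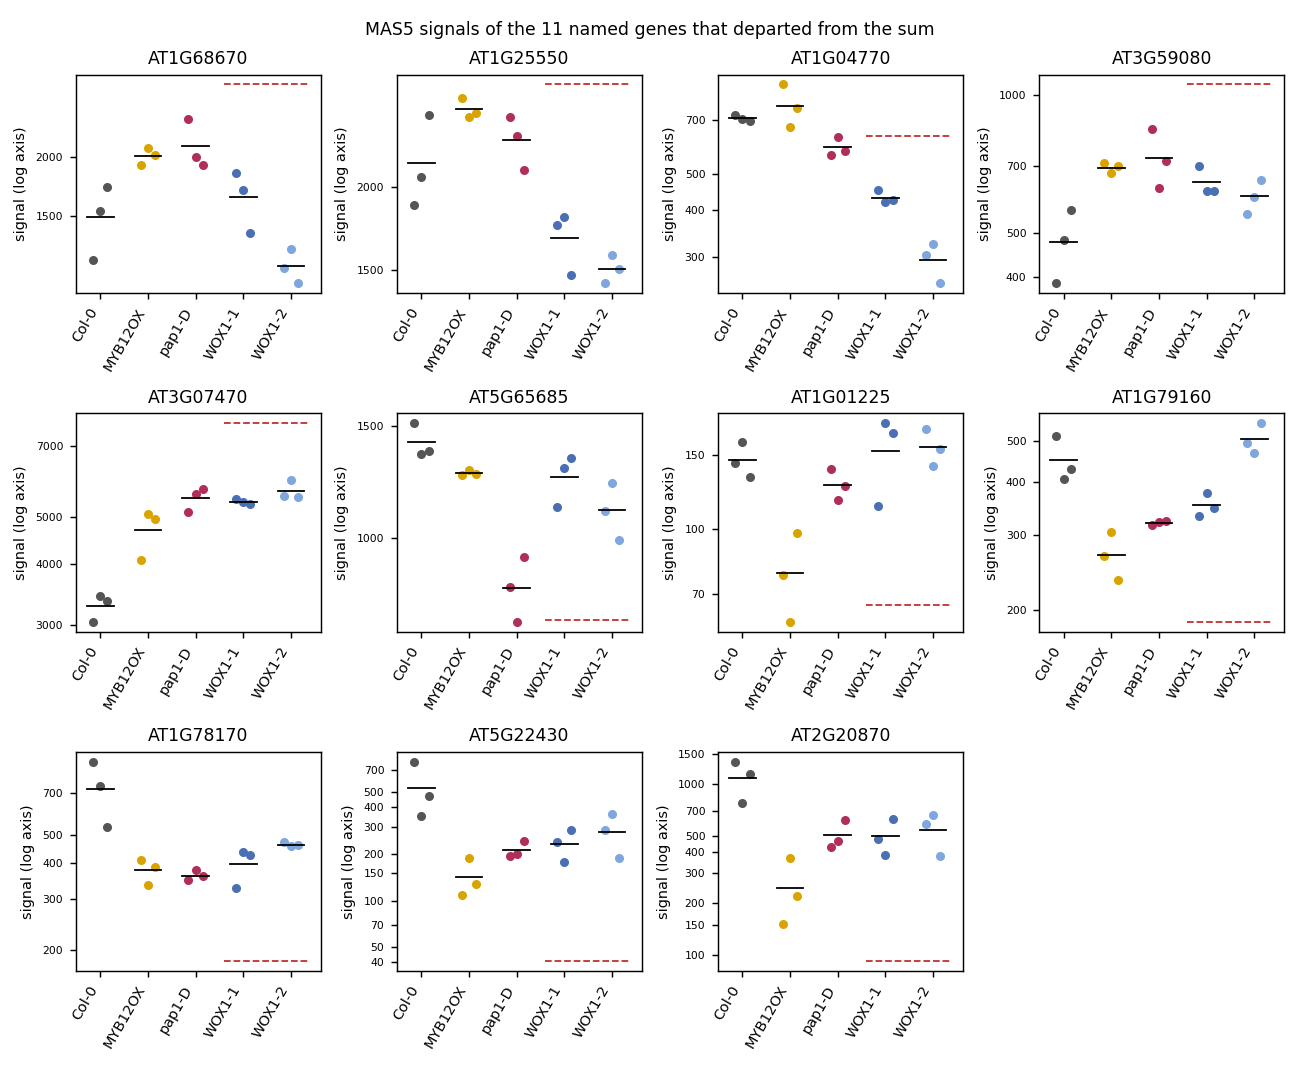
Signals (vertical, log axis that differs between panels) of the 11 named genes that departed from the sum, on the 3 arrays of each genotype (points, black lines at the mean); the dashed red line is the signal that the sum of the single differences gives for the combined lines. In the first 5 panels the combined lines lie below that line, as AT1G68670 at 1380 against 2857, and in the other 6 above it, as AT1G79160 at 421 against 188.

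Among the 12 probe sets above the sum, all MYB12OX arrays lay below all 12 others in 5, as in 0.268% of all tested, and all Col-0 arrays lay above all others in 3, as in 4.84%. These counts again use the values behind the calls. An unnamed probe set, also picked after its values were seen, averaged 240 in the wild type, 73.8 in MYB12OX, 80.9 in pap1-D, 108 in WOX1-1 and 141 in WOX1-2. Its departure was 1.68 ± 0.26 (adjusted p = 0.00293), and it passed in all 15 fits that left out 1 array. The sum corresponds to a signal of 8.43, below the offset of 42.6 and possibly at background, where 121 was measured.

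Flower and anther genes had departures of the same sign as AT2G20870 and AT5G22430. Of the 12 genes of this marker list, 4 had a named probe set and 3 were tested, all with positive departures (median 1.39 against 0.03 over all probe sets) and none passing. The sum of the single differences corresponds to signals of 0 for ATA27, 4.29 for ROXY2 and 2.54 for AT5G07230, below the offset of 42.6. Sums that low leave little room for a negative departure, so the shared sign and the median say little. ROXY2, a glutaredoxin gene of anther development, read 85.5, 145 and 142 in Col-0, 45.2, 88.2 and 101 in MYB12OX and 13.3, 17.2 and 40.8 in pap1-D. It read 95.9, 108 and 130 in WOX1-1 and 81.6, 99.1 and 60.5 in WOX1-2, so pap1-D alone stood below all other arrays. Its departure was 1.54 ± 0.33 (95% interval 0.86 to 2.23, adjusted p = 0.0508). ATA27, an anther gene, read 98.2, 20.5 and 54.3 in Col-0, 2.08, 1.19 and 3.65 in MYB12OX and 4.07, 1.31 and 45.1 in pap1-D. It read 3.63, 21.9 and 37.3 in WOX1-1 and 13.9 and 153 on WOX1-2 replicates 1 and 2, while WOX1-2 replicate 3 lay below every other array. Arrays as dim as those of MYB12OX thus occurred in pap1-D and in both combined lines, and the departure was 1.39 ± 0.68 (adjusted p = 0.581). The tapetum gene AT5G07230 was at 0.96 ± 0.61 (adjusted p = 0.725). The summed signal of the 4 markers was 255 to 339 in Col-0, 122 to 219 in MYB12OX, 57.6 to 152 in pap1-D, 144 to 310 in WOX1-1 and 155 to 390 in WOX1-2. The part of flower tissue in the departures of AT2G20870 and AT5G22430 was not tested.

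**Figure D4:**
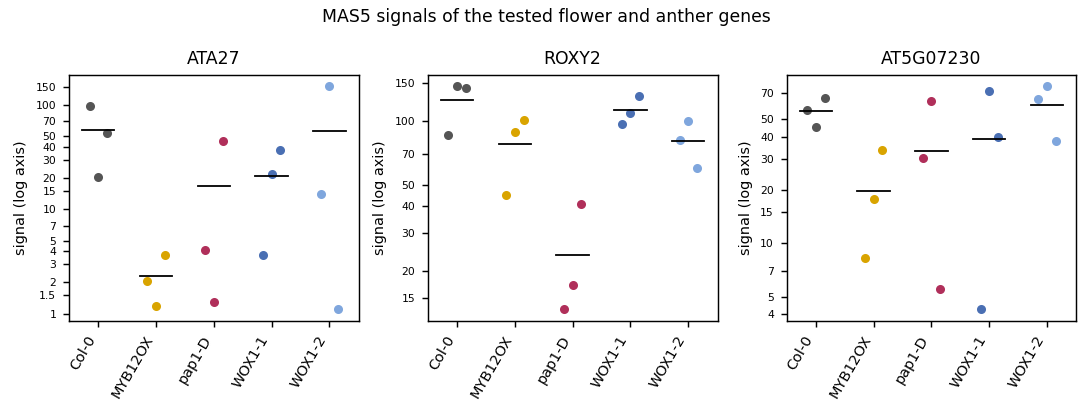
Signals (vertical, log axis that differs between panels) of the 3 tested flower and anther genes on the 3 arrays of each genotype (points, lines at the mean). ROXY2 is lowest in pap1-D, at 13.3 to 40.8, while ATA27 is at 1.19 to 3.65 in MYB12OX and has arrays as low in pap1-D and both combined lines.

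None of the 8 named and tested genes of the flavonoid lists passed, where 0.208% of all probe sets did, so the count says little about the pathway. Probe sets without a single gene name are not covered by it. Of 10 genes of the anthocyanin branch 4 were tested and none passed, with a median departure of -0.19 against 0.03 over all probe sets. DFR, the dihydroflavonol reductase that opens the branch, read 25.5, 73.6 and 14.8 in Col-0, 33.3, 57.2 and 51.1 in MYB12OX and 2706, 2930 and 2547 in pap1-D. It read 2484, 2392 and 2448 in WOX1-1 and 2451, 2507 and 2681 in WOX1-2, overlapping pap1-D. MYB12OX exceeded Col-0 by 0.21 ± 0.19, and the combined lines from pap1-D by -0.13 ± 0.17. The departure was -0.34 ± 0.25, with a 95% interval of -0.87 to 0.19 (adjusted p = 0.794), so the arrays cannot tell additivity from a shortfall of up to that lower bound.

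The sugar-adding and acylating enzymes of the branch had similar intervals. The xylosyltransferase gene UF3GT averaged 814 ± 44.1 in pap1-D, 697 ± 47.4 in WOX1-1 and 657 ± 52.1 in WOX1-2, against 69.1 ± 18.8 in Col-0 and 39.1 ± 8.56 in MYB12OX (SD, n = 3 each). Its departure was 0.19 ± 0.17 (95% interval -0.17 to 0.55). The glucosyltransferase gene AT4G14090 averaged 520 ± 102 in pap1-D, 454 ± 13.9 in WOX1-1 and 428 ± 45.2 in WOX1-2 and had a departure of -0.04 ± 0.21 (-0.48 to 0.41). Its means of 11.1 in Col-0 and 5.20 in MYB12OX lay below the offset of 42.6. This departure therefore depended on the offset, and it turned positive with no offset. The malonyltransferase gene AT5MAT averaged 357 ± 21.8 in pap1-D, 298 ± 16.1 in WOX1-1 and 296 ± 22.4 in WOX1-2, with a departure of -0.35 ± 0.22 (-0.79 to 0.10). UF3GT in MYB12OX (39.1) and AT5MAT in Col-0 (42.5) also averaged below the offset, so their departures depended on it too. All 4 estimates put the combined lines below pap1-D, by -0.25 ± 0.11 for UF3GT, -0.21 ± 0.14 for AT4G14090 and -0.23 ± 0.14 for AT5MAT, beside the lower pap1-D-linked signal of these lines (-0.34 ± 0.11). The pap1-D-linked probe set has no gene name and may not measure PAP1 itself. These differences were not tested for passing, and the part of the PAP1 level in them was not tested.

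On the flavonol side the only tested early gene was CHIL, which encodes a chalcone isomerase-like protein that assists chalcone synthase. It averaged 102 ± 39.5 in the wild type, 159 ± 7.56 in MYB12OX, 200 ± 4.15 in pap1-D, 225 ± 42.8 in WOX1-1 and 201 ± 47.7 in WOX1-2 (SD, n = 3 each). Its departure was -0.45 ± 0.41, with a wide interval of -1.31 to 0.41 (adjusted p = 0.853). The 3 tested flavonol glycosylation genes lay near the sum. The departure was 0.05 ± 0.24 for the rhamnosyltransferase gene UGT78D1 (-0.45 to 0.54), which averaged 409 in Col-0 and 307, 284, 241 and 206 in MYB12OX, pap1-D, WOX1-1 and WOX1-2. It was -0.01 ± 0.18 for UGT78D2 (-0.39 to 0.36), which glucosylates flavonols and anthocyanins and averaged 571 in pap1-D against 490 and 461 in the combined lines. It was 0.16 ± 0.22 for the rhamnosyltransferase gene AT1G06000 (-0.30 to 0.62), which averaged 116 in the wild type, 100 in MYB12OX, 48.6 in pap1-D, 42.2 in WOX1-1 and 57.1 in WOX1-2. The other early enzymes and the phenylalanine ammonia-lyase genes were not analysed here.

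Among the genes of cell expansion EXO had the largest departure, which missed the threshold. EXO, a growth gene induced by brassinosteroids, read 806, 972 and 1631 in Col-0, 1925, 3337 and 2983 in MYB12OX and 3136, 2948 and 4592 in pap1-D. It read 4766, 4057 and 4913 in WOX1-1 and 3411, 2771 and 2446 in WOX1-2, so every overexpressor array exceeded every Col-0 array and the combined lines did not overlap each other. The single differences were 1.27 ± 0.20 and 1.64, the combined one 1.69, and the departure -1.22 ± 0.27 (95% interval -1.78 to -0.66, adjusted p = 0.0566). It passed in WOX1-2 alone (-1.56, adjusted p = 0.0126), not in WOX1-1 (-0.88, adjusted p = 0.393), and in 4 of the 15 fits that left out 1 array.

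Of the 9 expansin and expansin-like genes tested none passed, against 0.208% of all probe sets, a share at which so few genes would give no call. EXLA1 averaged 1520 ± 393 in the wild type, 2832 ± 394 in MYB12OX, 4205 ± 485 in pap1-D, 5168 ± 741 in WOX1-1 and 5172 ± 876 in WOX1-2, a departure of -0.61 ± 0.21 (-1.05 to -0.17, adjusted p = 0.326). EXPB1 averaged 158, 164, 130, 98.0 and 70.5 in the same order, a departure of -0.49 ± 0.22 (-0.95 to -0.03, adjusted p = 0.538). EXPA8 averaged 5455, 3466, 2736, 1774 and 1304, and this steady descent amounted to single differences of -0.65 and -0.99 and a combined one of -1.81, close to their sum (departure -0.18 ± 0.16, -0.50 to 0.15). The departures of EXPA15 (0.20), EXPB3 (-0.07), EXLB1 (0.05), EXPA4 (0.04), EXLA2 (0.03) and EXLA3 (-0.02) had intervals that all covered 0.

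**Figure D5:**
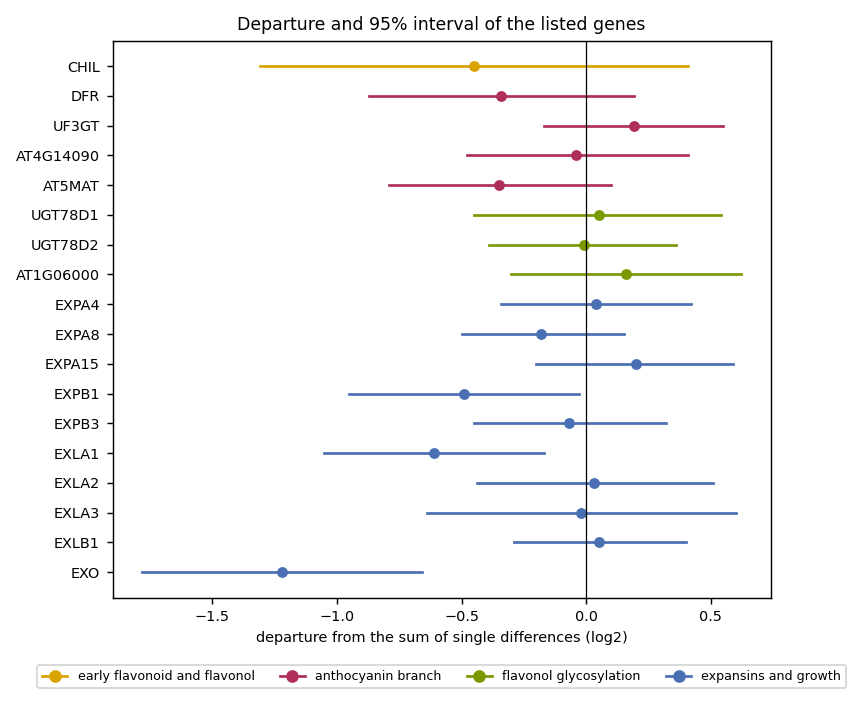
Departure from the sum of the single differences (horizontal, log2) for each tested gene of the flavonoid, anthocyanin, glycosylation and expansin lists, with points at the estimate and lines for the 95% interval. EXO lies lowest at -1.22, and the intervals of the 8 flavonoid genes all cover 0.

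The other lists gave no member that passed apart from AT1G04770. The 5 tested cold and drought genes were all slightly above the sum (median 0.13), with COR27 at 0.31 (-0.09 to 0.72) and AT4G33980 at 0.40 (-0.03 to 0.84). The 4 tested jasmonate genes had a median of -0.18 and intervals as wide as -2.28 to 1.84 for the defensin gene PDF1.2b. The 3 aliphatic glucosinolate genes lay between -0.26 and -0.01. HCT of lignin synthesis was at -0.03 (-0.22 to 0.17) and ALDH2C4 of sinapate synthesis had an interval of -0.18 to 0.19. The 4 fast stress genes all had negative departures (median -0.79), down to -1.47 ± 0.91 for AT2G27080, which read 2541 on pap1-D replicate 1 and 2514 on WOX1-1 replicate 1 against 67.3 to 1088 on the other arrays.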

How the data were processed

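The table holds 22810 probe sets on 24 ATH1 arrays as linear signal intensities that the authors made with MAS5, per the submitters' processing notes, which record no version. The deposited intensities have a mean of 500.0 on every array after trimming 2% at each end, which would hide a shift of most genes one way, and array medians of 163.9 to 176.7. There are no detection calls, so dim probe sets may be at background, and the number of arrays limits the precision. From these, 64 control probe sets were left out, an offset of 42.6 (the overall median of 170.4 divided by 4) was added before log2, which understates differences of dim probe sets, and 14935 of 22746 probe sets above 85.2 on at least 3 arrays were tested. All 8 genotypes entered 1 linear model in limma 3.58.1 (R 4.3.3) with an intensity trend, and the departure was tested two-sided with Benjamini-Hochberg adjustment over all tested probe sets. The model was tested on simulated data with independent noise on each array, which does not cover arrays that deviate together. Differences between lines other than the departure are given with their SE and no call.

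Of 22746 probe sets, 13513 had 1 gene, 503 several and 8730 none in the platform annotation, and 13436 matched the RefSeq table of TAIR10.1, used for names only. Of 277 genes in 26 lists, 62 had a named probe set and 51 were tested. The members, lists and tests were chosen with earlier results of these data known. Text names each tested member of the flavonoid, anthocyanin, flavonol glycosylation and expansin lists, other list members that passed, and outside the lists up to 12 passing genes in each direction with equal sign in both WOX lines, filled up to 6 by smallest p. Fast stress, flower and other genes beyond that rule were chosen after their values were seen. The alternatives varied the offset, scale, filter, normalization, arrays and model.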

Additional observations from a re-analysis of the deposited data

Results flagged for a closer look

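For 11 named genes the MYB12OX effect differed between the pap1-D and Col-0 backgrounds by the limma test of the departure. The difference was positive for AT2G20870 (2.03), AT5G22430 (1.80), AT1G78170 (1.05), AT1G79160 (1.01), AT1G01225 (0.85) and AT5G65685 (0.62). It was negative for AT1G68670 (-1.03), AT1G25550 (-0.83), AT1G04770 (-0.76), AT3G59080 (-0.72) and AT3G07470 (-0.50). Only AT1G68670, AT1G25550, AT1G79160 and AT1G78170 passed in all 15 fits that left out 1 array. The others, with AT2G20870 and AT5G22430 among them, lost the call in some of these fits.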

How the results depend on the processing

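The 31 probe sets that passed for the mean of both WOX lines became 18 with no filter, 17 with the 5 genotypes only, 18 with no intensity trend, 67 with array weights, 75 with the place in the listing as covariate (11 above, 64 below) and 52 without the arrays numbered 1. The 7 of WOX1-1 became 12 on linear signals, 11 with a stricter filter, 3 with 5 genotypes, 2 with no trend, 22 with weights, 14 with the place and 13 without the arrays numbered 1. The 63 of WOX1-2 became 41 with no filter, 28 with 5 genotypes, 112 with weights, 96 with the place and 95 without the arrays numbered 1. With the replicate block the counts were 55 for the mean and 111 for WOX1-2; nothing in the labels says that equal numbers share a batch, and deviations correlated above 0.1 in 14 of 30 same-numbered pairs, short of all (median 0.095, range -0.136 to 0.56, against a median of -0.0421 and a range of -0.44 to 0.282 for other numbers). Some same-numbered arrays thus deviated together, and the summed fast stress signal was high on replicate 1 of MYB12OX, pap1-D, WOX1-1 and WOX1-2. Leaving out 1 array gave 12 to 67 for the mean, 2 (without Col-0 replicate 1, MYB12OX replicate 3, pap1-D replicate 1 or WOX1-1 replicate 3) to 29 (without Col-0 replicate 3) for WOX1-1, and 29 (without Col-0 replicate 1) to 83 (without Col-0 replicate 3) for WOX1-2. The setting without pap1-D replicate 1 and WOX1-1 replicate 1 was chosen after seeing the data. No named gene that passed changed sign in any setting run; of the 11, 7 lost their call without the arrays numbered 1, 5 with no filter, 4 each on linear signals, with 5 genotypes and with no trend, and 3 without pap1-D replicate 1 and WOX1-1 replicate 1; the cause was not tested. EXO, which had not passed, did so with weights (-1.30), with the place (-1.36), without the arrays numbered 1 (-1.40) and with the block (-1.22). Genes near 0 that did not pass changed sign: on linear signals UF3GT to -107 and EXPA8 to 792 signal units; with no offset AT4G14090 to 0.99, UGT78D2 to 0.0018 and EXLA3 to 0.07; with quantile normalization EXLA2 to -0.01; with weights EXPB3 to 0.05, EXLA2 to -0.05 and EXLA3 to 0.10; with the place UGT78D2 to 0.02, EXPA4 to -0.0036 and EXLA2 to -0.11. Without the arrays numbered 1, EXPA4 was -0.04, EXLA2 -0.18, EXLA3 0.02 and EXLB1 -0.02, and without pap1-D replicate 1 and WOX1-1 replicate 1, UGT78D1 was -0.08, EXPA4 -0.03, EXPB3 0.02, EXLA2 -0.06 and EXLA3 0.11. Leaving out 1 array also turned AT4G14090 (-0.19 to 0.08), UGT78D1 (-0.03 to 0.17), UGT78D2 (-0.08 to 0.11), EXPA4 (-0.09 to 0.16), EXPB3 (-0.16 to 0.11), EXLA2 (-0.12 to 0.30), EXLA3 (-0.19 to 0.14) and EXLB1 (-0.10 to 0.20). With 3 arrays per genotype and no detection calls, the 95% interval of a typical probe set could not separate departures smaller than about 0.30 from 0. Passing the adjusted threshold took more, and the smallest departure that passed was 0.45 in size.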
